A study of Mus musculus with 10 samples.

Results

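Rates of RNA synthesis, processing and degradation were examined for the genes whose symbols name a microRNA, a small nucleolar RNA (snoRNA) or a host transcript of either. Symbols starting with Mir and a digit, Mirlet, Snhg and a digit, Snora or Snord were taken from the deposited rate table. This name rule used no measured value, but it was chosen with earlier results of these data known. It gave 98 of 8590 genes (1.14%). Although they had been grouped as host genes, only 6 of the 98 were host transcripts by name: Snhg5, Snhg6, Snhg8, Snhg10, Snhg11 and Mir22hg. The other 92 were the small RNA genes themselves, 87 of microRNAs and 5 of snoRNAs (Snora35, Snora43, Snord1c, Snord42a and Snord93), and they are called small RNA genes here.

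The cells were cultured neurons of the mouse cortex, wild type or Fmr1 knockout, both of the strain FVB.129P2-Pde6b+ Tyrc-ch/AntJ, taken at embryonic day 18 and kept for 14 days in vitro. New RNA was labelled with 200 µM 5-ethynyluridine, a uridine analogue, for 20 or 60 min, and was fragmented and pulled down after coupling to biotin. Labelled fly RNA and unlabelled yeast RNA had been spiked in. Among the 10 samples, each genotype had 1 labelled library of 20 min, 1 of 60 min, 2 inputs and 1 pull-down of unlabelled RNA, and rates were listed for the 4 labelled libraries. The design asks how the loss of FMRP, the RNA-binding protein that Fmr1 encodes, alters the making, processing and decay of transcripts. Nothing in the labels says that the 2 labelled libraries of a genotype came from separate cultures, so p-values measure only the spread between labelling times.

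MicroRNAs are cut from longer primary transcripts, first by the Drosha and Dgcr8 complex in the nucleus and then by Dicer, and the mature strand guides an Argonaute protein to target messenger RNAs through its seed. Many primary transcripts are introns or exons of other genes. Most mammalian snoRNAs are trimmed from introns of host genes, and those of the C/D box class guide the methylation of ribosomal RNA. FMRP has been linked to microRNA function in neurons, and miR-125a and miR-132 are among the microRNAs studied with it at synapses.

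The 92 small RNA genes each had 1 exon in GENCODE M21, the annotation used here for position, and were 61 to 139 bases long (median 84). Mature sequences of the members were 19 to 26 bases long in RefSeq, below the library inserts of 50 to 200 bases given in the labels. The rate table does not say whether the RNA counted at these genes was a hairpin, a longer primary transcript or the transcript of an overlapping gene. Of the 92, 41 lay in an intron and 24 in an exon of a gene on the same strand, 4 faced a gene on the other strand only, and 23 had no annotated host. Counting by strand is not stated in the sources used here, and 10 members overlapped a gene on the opposite strand, so reads of such pairs cannot be told apart.

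Of the 87 microRNA genes, 82 had a mature sequence in RefSeq (GRCm38.p6). The following strands belong to microRNA genes whose degradation rate passed the test described below, together with miR-125b, which shares the seed of miR-125a. Mir26a-1, which did not pass, stands beside Mir26a-2 because both make the same strand, and the called Mir124a-2 and Mir320 are named only. They are shown so that the seed, bases 2 to 8 from the 5′ end and printed in capitals, can be read beside the values.
miR-138-5p of Mir138-2: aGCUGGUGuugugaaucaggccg
miR-218-5p of Mir218-2: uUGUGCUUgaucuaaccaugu
miR-125a-5p of Mir125a: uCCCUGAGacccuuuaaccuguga
miR-125b-5p of Mir125b-1: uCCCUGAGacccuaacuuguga
miR-26a-5p of Mir26a-1 and Mir26a-2: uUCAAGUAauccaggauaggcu
miR-326-3p of Mir326: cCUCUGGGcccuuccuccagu
miR-335-5p of Mir335: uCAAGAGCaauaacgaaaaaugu
miR-541-5p of Mir541: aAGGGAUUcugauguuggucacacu
let-7a-5p of Mirlet7a-1: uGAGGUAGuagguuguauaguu
let-7d-5p of Mirlet7d: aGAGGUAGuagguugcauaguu

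The hairpins of the pair of let-7 genes are printed whole, with both mature arms in capitals, because these neighbours were the only members called lower in the knockout. Mirlet7a-1 lies at chr13:48538179-48538272 and Mirlet7d at chr13:48536012-48536114, both on the minus strand of GRCm38.
let-7a-1 hairpin: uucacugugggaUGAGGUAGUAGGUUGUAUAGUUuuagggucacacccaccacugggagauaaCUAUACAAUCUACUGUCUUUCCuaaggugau
let-7d hairpin: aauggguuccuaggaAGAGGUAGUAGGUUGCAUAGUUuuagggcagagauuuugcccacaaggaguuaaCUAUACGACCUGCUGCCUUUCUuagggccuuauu

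The C/D box snoRNAs with degradation rates in every library were Snord93 (chr5:23852210-23852280, plus strand, in an intron of 2700038G22Rik) and Snord42a (chr11:78181299-78181363, minus strand, in an intron of the ribosomal protein gene Rpl23a and opposite Tlcd1). Capitals mark the letters CTGA of the D box, searched on the transcript strand in the last 12 bases. These letters were found there in 30.1% of 1507 snoRNA transcripts of GENCODE M21.
Snord93: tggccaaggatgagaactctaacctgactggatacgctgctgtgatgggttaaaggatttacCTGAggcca
Snord42a: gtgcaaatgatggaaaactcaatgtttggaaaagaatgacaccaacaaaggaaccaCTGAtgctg

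The labels were checked on Fmr1 itself. Wild-type libraries gave a degradation rate of 0.0774 (20 min) and 0.0672 (60 min) and knockout libraries 2.58 and 2.66, while synthesis rates were 0.810 and 0.692 against 2.06 and 1.56. The Fmr1 transcript thus had a higher degradation rate in the libraries labelled knockout, and its synthesis rate was not lower there. Depth is not given in the rate table and is unknown here. Of the marker genes looked up, 2 of 10 neuronal, 3 of 6 astrocytic, 4 of 7 oligodendrocytic and 0 of 5 microglial ones had a row, so the labelled cell type could not be checked in full. Only 1 marker of each of the first 3 lists had a synthesis rate in all 4 libraries, so sums over a list would cover different genes in each genotype. The synthesis rate of the neuronal marker Rbfox3 was 2.77 (20 min) and 1.24 (60 min) in wild-type neurons and 2.15 and 0.844 in knockout neurons. That of the astrocyte marker Aldh1l1 was 2.11, 1.11, 2.76 and 1.23, and that of the oligodendrocyte lineage marker Olig2 was 17.96, 12.6, 20.2 and 13.8, in the same order of libraries. The part that cell composition has in the results was not tested. Fewer cells of a type and less RNA per cell cannot be told apart in such bulk samples.

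Processing rates, which need an intron, were nearly absent among the members. A processing rate was listed in any library for 3 of the 98, against 92.0% of the other genes. Snhg6 and Snhg11 had all 4 values, and Mir22hg had values at 20 min only. A degradation rate in any library was listed for 96 members, and the host transcripts Snhg5 and Snhg10 had no rate of any kind. All 4 degradation rates were present for 55 members (56.1%, against 66.7% of other genes), and all 4 synthesis rates above 0 for 70 (71.4%, against 67.4%).

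Of the 81 members with both wild-type degradation rates, 14 (17.3%) had neither knockout rate and 12 had 1 of them. In the other genes the first of these shares was 19.6%. The 14 were Mir128-2, Mir149, Mir15b, Mir193b, Mir222, Mir296, Mir300, Mir3070b, Mir330, Mir344-2, Mir6516, Mir7b, Snora35 and Snora43. Mir344-2 had the highest of their wild-type degradation rates, 3.57 at 20 min and 0.560 at 60 min, and Mir222 came next with 1.28 and 0.948. Rates at 20 and 60 min were 1.28 and 0.131 for Mir15b, 0.907 and 0.560 for Mir330, 0.665 and 0.203 for Mir128-2, 0.573 and 0.458 for Mir193b, and 0.573 and 0.411 for Mir7b. They were 0.398 and 0.801 for Mir300, 0.232 and 0.131 for Mir149, 0.133 and 0.0797 for Mir3070b, and 0.123 and 0.131 for Mir296. Snora43 had 0.0720 and 0.0197, Mir6516 had 0.0323 and 0.0126, and all 14 kept a synthesis rate above 0 in the knockout at 60 min. Snora35, in an intron of the serotonin receptor gene Htr2c, had the lowest, 0.0228 and 0.00267. A further 15 members lacked 1 of the wild-type rates. The converse, both knockout degradation rates with no wild-type rate, occurred in 0 members and in 168 other genes.

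Synthesis rates were not lost in this way. Of the 81 members with both wild-type synthesis rates, 0 lacked a positive knockout rate at both times, against 1410 of 7833 other genes (18%). However, 10 members were listed at 0 in the knockout 20 min library, which held 17 such rows in all. Mir543 was 1 of them, at 11.1 and 14.5 in wild type (20 and 60 min) and 0 and 11.7 in the knockout. Mir3061 was another, at 14.3 and 1.31 in wild-type neurons and 0 and 1.32 in knockout neurons. The other 8 were Mir193b, Mir222, Mir3070b, Mir3099, Mir30c-2, Mir341, Mir344-2 and Mir568, and in these too the value at 60 min was above 0.

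The members stood near the top of both the synthesis and the degradation scale. In wild type their median synthesis rate was 8.22 at 20 min and 5.26 at 60 min, which was 7.86 and 5.23 times the median of the other genes (1.05 and 1.01). Their median degradation rate was 0.573 and 0.411, or 5.19 and 3.72 times that of the other genes (0.110 at both times). Against the other genes without any processing rate the medians were nearer, at 2.96 and 2.65 times for synthesis (medians of 2.78 and 1.99) and 2.10 and 2.27 times for degradation (0.273 and 0.181). At 20 min, 64 of 82 members lay above the 90th percentile of synthesis rate and 58 of 82 above that of degradation rate. In the knockout the median degradation rate of the members was 1.05 at 20 min and 0.721 at 60 min, against 0.189 and 0.194 for the other genes. These are single rates in units of the deposited table, whose time unit is not stated.

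Leaving aside rates over 1000, the highest wild-type synthesis rates, by the mean of both libraries, were those of Mir125b-1 and Mir6546. Mir125b-1 had 123 and 341 in wild-type neurons and 105 and 99.6 in knockout neurons. Mir6546 had 227 and 43.5 in wild-type neurons and 98.8 and 18.3 in knockout neurons. The highest degradation rates on the same terms were those of Mir129-2 (9.39 and 3.91 in wild type, 0.353 at 20 min and none at 60 min in the knockout) and Mir7-1 (6.11 and 1.22, then 3.70 and 0.0403). In the wild-type 60 min library alone, Mir125b-1 stood above both, at 4.06. Among members with both wild-type rates, the lowest synthesis rates by this mean were those of Snhg11 (0.314 and 0.219 in wild type, 0.402 and 0.307 in the knockout) and of Mir3099 (1.91 and 0.218, then 0 and 0.564). At 20 min alone other members, such as Mir20a (1.57), stood below Mir3099. Snora35 and Snord93 had the lowest degradation rates by the same mean. Snord93 stood at the 0.907th percentile and Snord42a at the 16.9th at 20 min, where the median member stood at the 96.7th, while Snord1c stood at the 83.6th at 60 min.

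Many members shared exactly the same degradation rate with another gene. In the wild-type 20 min library, 51 of 82 members (62.2%) had a degradation rate listed for at least 1 other row, against 1.91% of the other genes. The value 0.573006 alone was listed for 11 members, Mir153, Mir15a, Mir193b, Mir20a, Mir329, Mir340, Mir380, Mir409, Mir543, Mir7b and Mir99a, whose synthesis rates ran from 1.57 to 11.1. The share was 49.5% in the wild-type 60 min library (0.546% of other genes), 32.4% in the knockout 20 min library (0.0476%) and 16.2% in the knockout 60 min library (0 of 6097). In the knockout 20 min library, Mir103-2, Mir26a-1, Mir3106, Mir409, Mir758 and Mirlet7a-2 all had 1.05. Synthesis rates above 0 were not shared by these rows. Of the 55 members with all 4 degradation rates, 41 had a shared value in at least 1 library.

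**Figure D1:**
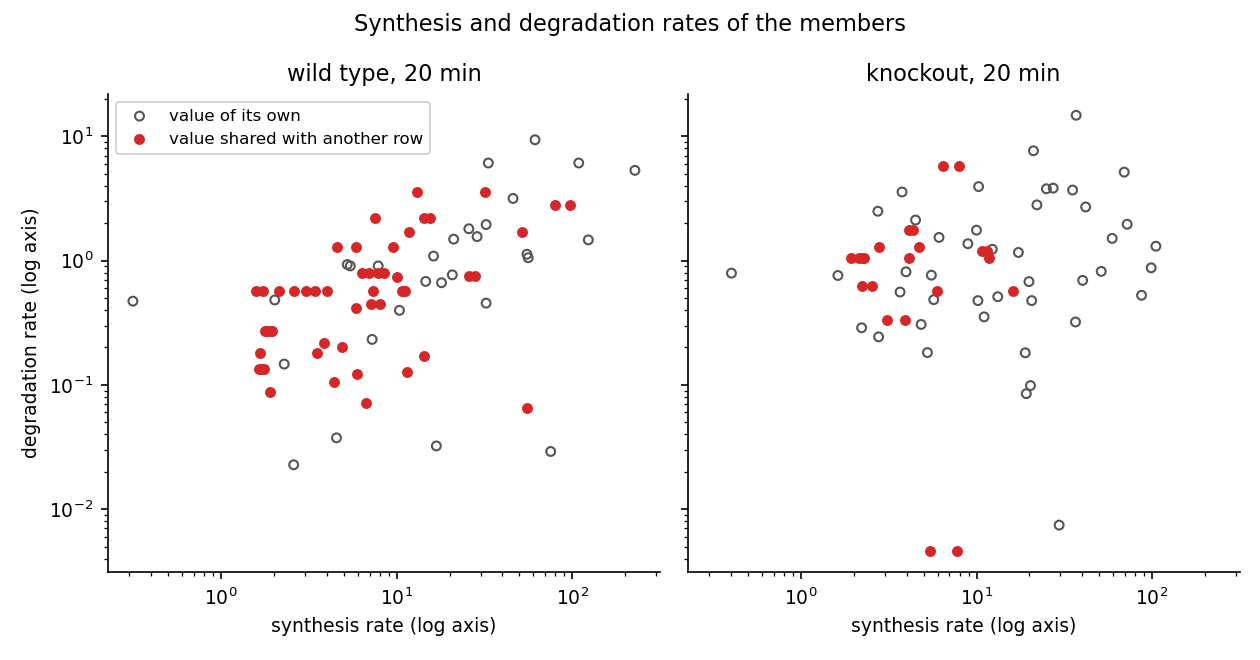
Synthesis rate (x, log axis) and degradation rate (y, log axis) of each member in the 20 min libraries of wild type (left) and knockout (right), in units of the deposited table. Each point is 1 gene, with rates over 1000 left out, and filled points share their degradation rate with another row. Filled points form horizontal rows, the longest at 0.573 in wild type. Shared values make up 62.2% of the degradation rates of the members in the wild-type library and 32.4% in the knockout library.

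Extreme rates also fell on these genes. A synthesis or degradation rate over 1000 was listed for 26 genes, and 12 of them (46.2%) were members, which are 1.14% of all rows. In each of the 12, exactly 1 library had the extreme degradation rate. Mir17 had a degradation rate of 1.44e+12 in wild type at 20 min, 1.59 at 60 min and 0.335 in the knockout at 20 min. Mirlet7f-2 had 1.49 and 0.872 in wild-type neurons and 1.10e+09 and 2.24 in knockout neurons. Mir29b-1 had 1.95 and 0.388 in wild-type neurons and 3.12e+11 and 3.52 in knockout neurons. Mir329 had 0.573 and 2.51 in wild-type neurons and 2.12 and 2.61e+10 in knockout neurons. In wild type the extreme rate was that of Mir369 at 60 min (1.09, then 5.68e+09, with 0.678 and 0.352 in the knockout), of Mir376b at 60 min (0.680, then 1.86e+08, with 0.477 and 0.7001) and of Mir3106 at 20 min (3.04e+08, then 2.51, with 1.05 and 0.737). The others were Mir136, Mir154, Mir15a, Mir411 and Mir7-2. Their synthesis rates were extreme in the same libraries, up to 5.04e+12 for Mir17. These genes held the highest log2 changes (Mir29b-1, Mir329 and Mirlet7f-2) and the lowest (Mir369, Mir3106 and Mir376b in degradation, Mir17, Mir369 and Mir3106 in synthesis). None of the 12 passed the limma test below, and Mir7-2 passed with the replicate block.

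In the knockout, 11 members had a higher and 2 a lower degradation rate by limma with Benjamini-Hochberg adjustment over all 5716 genes tested. The 13 calls are 23.6% of the 55 members tested, next to 23.1% of all genes. The 11 higher calls stand beside 20.5% of all genes called higher, and the 2 lower ones beside 2.57%, so the members were called about as often as genes in general. The median log2 change was 1.03 over the members and 0.65 over all genes tested, and 37 of 55 members (67.3%) lay above 0, against 68.1% of all genes. Unadjusted p was under 0.05 in 21 members. Both knockout libraries lay above both wild-type libraries in 24 members (52.6% of all genes), below them in 8 (16.5%), and the genotypes overlapped in 23. In all 13 called members the genotypes did not overlap. Synthesis divided by degradation rate gave the same value at both times within 0.001 log2 units in 80 of 81 members in wild type (93.3% of other genes) and in 1 of 59 in the knockout (0.257% of other genes). The wild-type degradation rates of those 80 members thus differed between times only as their synthesis rates did, and are not independent estimates. Of the 13 called members, 9 had a degradation rate shared with another row in at least 1 library. Mir218-2 and Mir335 had shared rates in 3 libraries, and Mir138-2, Mir326 and Mir541 in 2. The part that shared rates have in the calls was not tested.

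The count of calls moved with the scaling and with single libraries. With labelling time as a replicate block, 22 members passed (18 higher, beside 38.2% of all genes, and 4 lower, beside 9.76%; 48.0% either way), including the 13. The other 9 were Mir153, Mir16-1, Mir30c-2, Mir487b, Mir7-2, Mir744 and Snord42a, higher, and Mir22hg and Mir6944, lower. Centring each library on its median, which removed a shift of 0.86 log2 units between genotypes, left 2 calls (1.61% of all genes), Mir138-2 higher and Mirlet7a-1 lower, and a median change of 0.17. Quantile normalization left 4 higher and 2 lower (10.4% of all genes either way), and centring together with the block left 9 higher and 6 lower (36.2%). Without the wild-type 60 min library 1 member passed (0.0175% of all genes) and it was not among the 13, and without the wild-type 20 min library 18 passed (19.5%). Without the knockout 20 min or the knockout 60 min library 10 passed each time, with 2 of the 13 among them, beside 2.62% and 2.26% of all genes. In those fits the lone library of a genotype was assumed to vary like the other genotype. Scaling also moved single values by over 1.5 times. Quantile normalization put the log2 change of Mir218-2 at 8.11, of Mir26a-2 at 8.01, of Mir335 at 1.18 and of Snhg6 at 0.88, against 3.61, 2.56, 1.88 and 1.70 without it. Centring put Mir124a-2 at 1.55, Mir26a-2 at 1.70, Mir335 at 1.03 and Snhg6 at 0.84, and a pseudocount put Snord93 at 3.19, against 5.16. At a threshold of 0.01, 0 passed. The authors' deposited table tested 51 members and called 17 at an adjusted p under 0.05, where 36.3% of its genes passed. Of these, 14 were higher (29.2% of its genes) and 3 lower (7.09%). That test covered another set, as 12 of its 51 members lacked at least 1 of the 4 rates. Such members among its calls were Mir703, Mir708, Mir7068 and Mir758, higher, and Mir99a and Mir551b, lower. Of the 13 members called here, 7 were called in the authors' deposited table as well, and 6 were not tested.

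**Figure D2:**
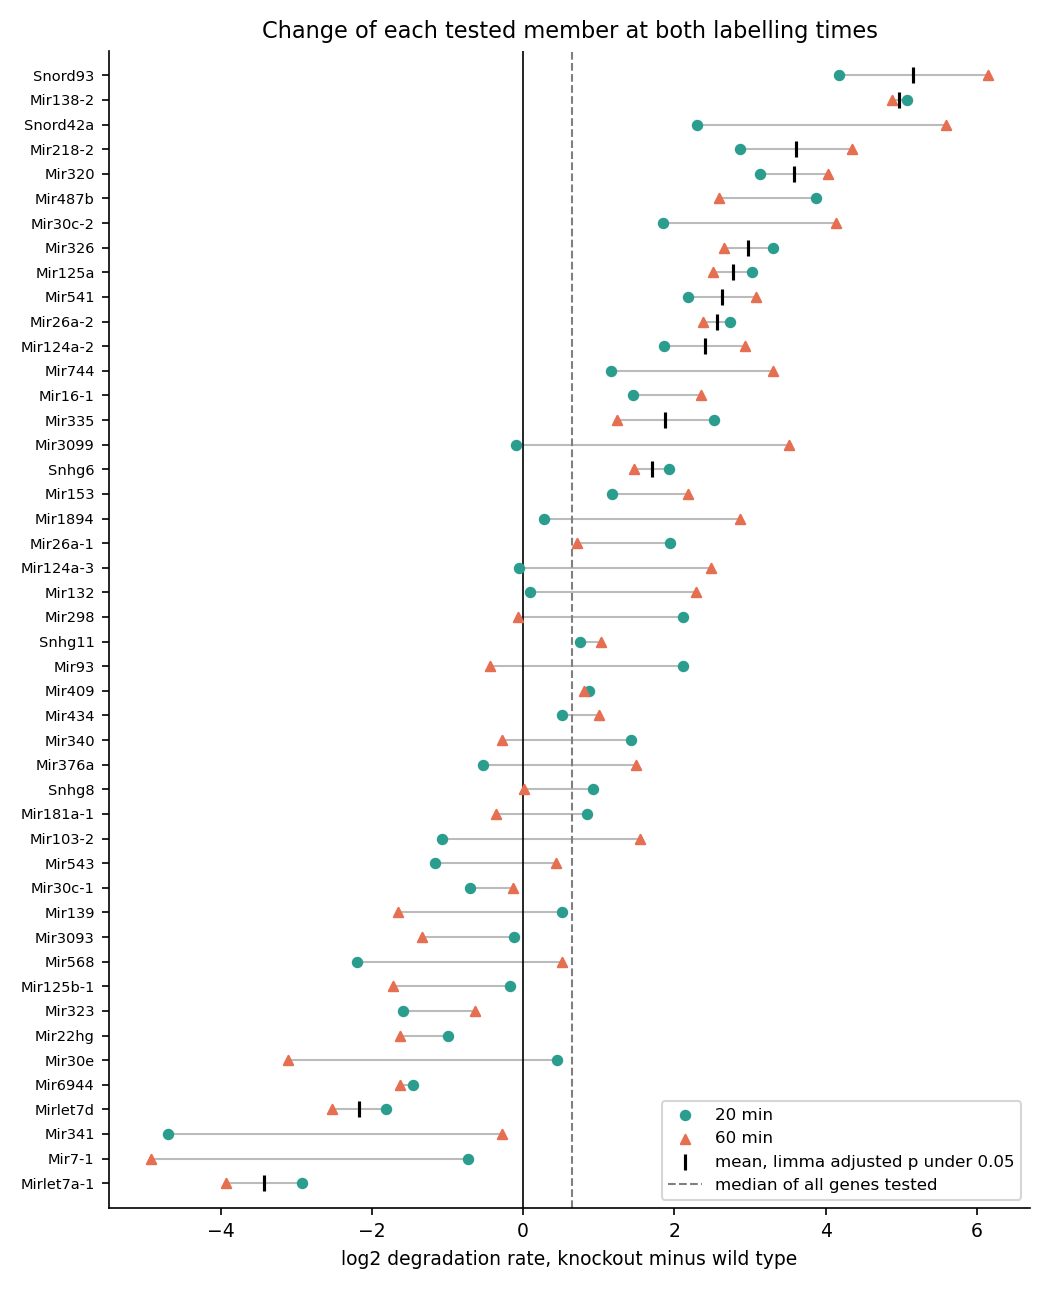
Log2 difference in degradation rate, knockout minus wild type (x), for the 46 tested members without a rate over 1000 (y). Circles give the difference between the 20 min libraries and triangles that between the 60 min libraries, black bars mark the mean of members with a limma adjusted p under 0.05, and the dashed line is the median of all genes tested (0.65). Snord93 is at the top and Mirlet7a-1 at the bottom. The points of Mir138-2 lie close together (5.07 and 4.87), and those of Snord42a lie far apart.

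Among microRNA genes, Mir138-2 had the largest rise that passed. The microRNA, miR-138, is known for limiting the size of dendritic spines, and its gene lies in an exon of the noncoding gene C78859 (chr8:94324311-94324381, plus strand). Its degradation rate was 0.106 (20 min) and 0.181 (60 min) in wild-type neurons and 3.57 and 5.30 in knockout neurons (log2 change 4.97, SE 0.449, n = 2 libraries per genotype, limma adjusted p = 0.0235). The change was alike at both times, 5.07 and 4.87. Its synthesis rates overlapped between genotypes, with 4.39 and 7.48 in wild-type neurons and 3.76 and 20.9 in knockout neurons.

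Mir218-2, in an intron of the axon guidance gene Slit3, followed. Its degradation rates of 0.791 and 0.337 in wild type lay below the 5.79 and 6.86 of the knockout (log2 change 3.61, SE 0.528, limma adjusted p = 0.0238). Both knockout values were also listed for Mir3085, and the wild-type 20 min value for Mir30c-1, Mir744 and Mir92b. Mir320, whose hairpin is known to bypass Drosha, had no annotated host and went from 0.449 and 0.249 to 3.94 and 4.08 (log2 change 3.58, SE 0.425, limma adjusted p = 0.0235). In Mir218-2 and Mir320 the synthesis rates in the knockout were above those in wild type as well, by 0.85 and 0.83 on the log2 scale, which did not pass.

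Mir125a lies in an exon of Spaca6. Its degradation rates were 0.0375 and 0.0586 in wild-type neurons and 0.307 and 0.335 in knockout neurons (log2 change 2.77, SE 0.382, limma adjusted p = 0.0235). Its synthesis rates differed little, 4.53 and 7.08 against 4.84 and 7.58. Mir125b-1, which makes a microRNA of the same seed, had degradation rates of 1.47 and 4.06 in wild-type neurons and 1.31 and 1.24 in knockout neurons, and its log2 change of -0.94 (SE 0.587) did not pass (limma adjusted p = 0.284). The difference between these paralogs was not tested. Mir132, the other microRNA gene introduced above with FMRP, had overlapping degradation rates, 3.57 and 0.203 in wild-type neurons and 3.79 and 0.995 in knockout neurons. Its log2 change of 1.19 (SE 1.58) did not pass (limma adjusted p = 0.598). In the authors' deposited limma table its log2 change was 2.40 with an adjusted p of 0.0450.

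Mir26a-2, in the phosphatase gene Ctdsp2, had the highest knockout rates among the called members. Degradation rates of 2.21 and 1.95 in wild type stood against 14.8 and 10.1 in the knockout (log2 change 2.56, SE 0.367, limma adjusted p = 0.0236). This call did not hold with a trend in eBayes (limma adjusted p = 0.0934). Mir26a-1, in Ctdspl, makes the same mature strand and had 0.273 and 0.322 in wild-type neurons and 1.05 and 0.530 in knockout neurons, and its log2 change of 1.33 (SE 0.463) did not pass (limma adjusted p = 0.102). How reads that match more than 1 of such gene copies were assigned is not given in the sources used here, and copies with the same mature strand are therefore uncertain. A further such pair, Mir30c-1 and Mir30c-2, had log2 changes of -0.42 and 2.998 with limma adjusted p-values of 0.662 and 0.0515. With the replicate block that of Mir30c-2 was 0.0272.

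Mir326, Mir541, Mir124a-2 and Mir335 were called higher too, with both knockout libraries above both wild-type ones. Mir326, in an intron of the arrestin gene Arrb1, went from 0.179 and 0.491 to 1.77 and 3.08 (log2 change 2.98, SE 0.643, limma adjusted p = 0.0417). Mir541, in an intron of the noncoding gene Mirg, went from 0.179 and 0.0852 to 0.813 and 0.722 (log2 change 2.63, SE 0.482, limma adjusted p = 0.0310). Mir124a-2 encodes miR-124, a highly abundant microRNA of neurons, and lies in an exon of its host transcript Mir124-2hg. It went from 0.769 and 0.383 to 2.81 and 2.94 (log2 change 2.41, SE 0.461, limma adjusted p = 0.0336). Mir124a-3, by its symbol another gene of miR-124, overlapped between genotypes, at 2.81 and 0.688 against 2.70 and 3.87. The log2 change of Mir124a-3, 1.22 (SE 0.775), did not pass (limma adjusted p = 0.293). Mir335, in an intron of the imprinted gene Mest, went from 0.202 and 0.312 to 1.16 and 0.737 (log2 change 1.88, SE 0.438, limma adjusted p = 0.0477).

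**Figure D3:**
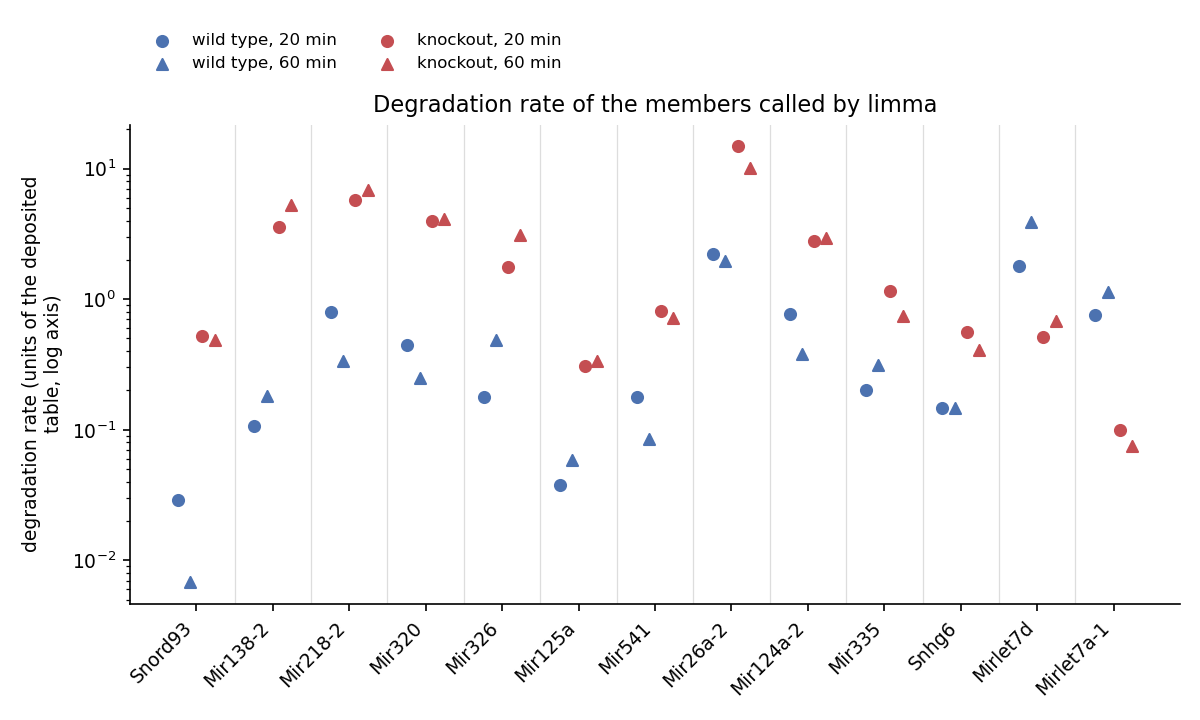
Degradation rate (y, log axis, units of the deposited table) of the 13 members called by limma (x), 1 point per labelled library, with wild type in blue, knockout in red, circles for 20 min and triangles for 60 min. The red points lie above the blue ones in 11 members and below them in Mirlet7d and Mirlet7a-1, and no member has overlapping genotypes.

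Both called falls were let-7 genes, a family that restrains growth programmes and accumulates as neurons mature. Mirlet7a-1 had degradation rates of 0.750 and 1.14 in wild-type neurons and 0.0987 and 0.0749 in knockout neurons (log2 change -3.43, SE 0.395, limma adjusted p = 0.0235). Mirlet7d had 1.80 and 3.91 in wild-type neurons and 0.512 and 0.679 in knockout neurons (log2 change -2.17, SE 0.509, limma adjusted p = 0.0482). The genes lie 2064 bases apart, both in exons of the noncoding gene 6720427I07Rik, so they need not be independent of each other. Their synthesis rates were also lower in the knockout at both times, at 20.3 and 19.1 against 25.8 and 39.1 for Mirlet7a-1 and at 13.2 and 16.2 against 25.7 and 55.8 for Mirlet7d. These synthesis changes of -0.69 and -1.37 did not pass the adjusted test. Mirlet7f-2 on chromosome X, of the same seed, was among the genes with an extreme rate. The hairpin of Mirlet7a-2 holds the same let-7a-5p strand as that of Mirlet7a-1. Mirlet7a-2 had no wild-type degradation rate at 20 min and could not be tested. Its rates were 1.12 in wild type at 60 min and 1.05 and 0.902 in knockout neurons.

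The ratio of synthesis to degradation rate, which equals the RNA level at steady state, was higher in the knockout for this pair. It was 34.4 in wild-type neurons and 205 and 255 in knockout neurons for Mirlet7a-1, and 14.3 against 25.8 and 23.9 for Mirlet7d. Over the 50 members with this ratio in all 4 libraries, those with extreme rates included, the median log2 change of the ratio was -0.80, with 35 of them lower in the knockout. Over the other genes it was -0.63, with 3823 of 5654 lower.

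Among snoRNA genes, Snord93 had the largest change of all called members. Its degradation rates were 0.0291 and 0.00683 in wild-type neurons and 0.526 and 0.484 in knockout neurons (log2 change 5.16, SE 0.776, limma adjusted p = 0.0246). Its synthesis rates overlapped, at 75.3 and 17.7 in wild-type neurons and 87.1 and 13.9 in knockout neurons. Snord42a had degradation rates of 0.0649 and 0.00567 in wild-type neurons and 0.321 and 0.272 in knockout neurons, and its log2 change of 3.95 (SE 1.23) did not pass (limma adjusted p = 0.0826). It passed with the replicate block (limma adjusted p = 0.0291). In the authors' deposited table the adjusted p of Snord42a was 0.0101 for a log2 change of 3.08. Snord1c had no wild-type rate at 20 min, 0.281 at 60 min and 0.627 and 0.594 in the knockout.

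Synthesis rates of the snoRNA genes were set beside labelling time. At 20 min they were higher than at 60 min in 4 of 4 snoRNA genes in wild type, with a median log2 difference of 2.59, and in 5 of 5 in the knockout, with 2.64. Snord42a had synthesis rates of 55.1 and 4.81 (20 and 60 min) in wild-type neurons and 36.6 and 4.55 in knockout neurons. Snora35 had 2.58 and 0.303 in wild-type neurons and 6.20 and 0.138 in knockout neurons. The median difference over all members was 0.52 in wild type and 0.62 in the knockout, against 0.04 and 0.12 over the other genes, and 60 members without extreme rates had the same sign in both genotypes in 38 cases (rank correlation 0.445, a description over genes that share libraries). The labelling times were not tested against each other, nor was the difference between snoRNA genes and the others.

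**Figure D4:**
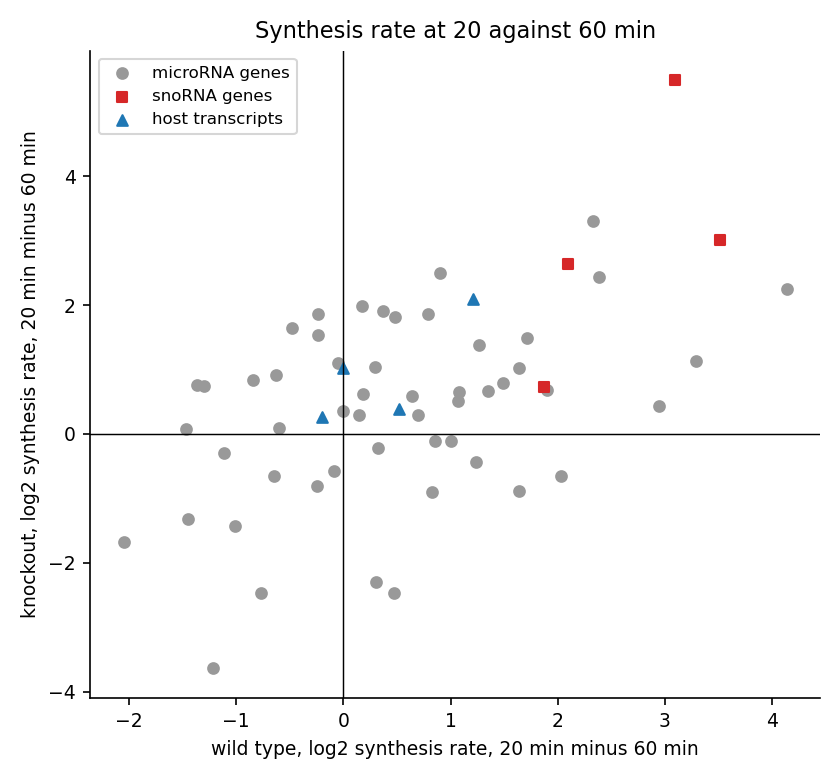
Log2 difference of the synthesis rate at 20 min minus that at 60 min in wild type (x) and in the knockout (y) for the 60 members with all 4 values and no rate over 1000. Grey circles are microRNA genes, red squares snoRNA genes and blue triangles host transcripts, and the 4 snoRNA genes lie at the upper right, where both genotypes were higher at 20 min.

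Of the host transcripts, Snhg6 alone was called. This noncoding host of Snord87 (chr1:9941959-9944118, minus strand), which overlaps Mcmdc2 on the opposite strand, had degradation rates of 0.147 and 0.147 in wild-type neurons and 0.559 and 0.408 in knockout neurons (log2 change 1.70, SE 0.347, limma adjusted p = 0.0374). The authors' deposited table gave the same log2 change of 1.70 with an adjusted p of 0.0197. Its synthesis rates overlapped, at 2.28 and 2.29 in wild-type neurons and 3.67 and 1.81 in knockout neurons.

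Snhg11, a brain-expressed host, had degradation rates of 0.472 and 0.329 in wild-type neurons and 0.793 and 0.670 in knockout neurons, and its log2 change of 0.89 (SE 0.367) did not pass (limma adjusted p = 0.141). Mir22hg, the host of miR-22, had lower values in the knockout, with 0.482 and 0.411 in wild-type neurons and 0.244 and 0.133 in knockout neurons. Its log2 change of -1.31 (SE 0.436) did not pass (limma adjusted p = 0.0942), but passed with the replicate block (limma adjusted p = 0.0349). Snhg8, host of Snora24, overlapped between genotypes, at 0.930 and 0.402 against 1.76 and 0.406.

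Processing rates could be compared for Snhg11 and Snhg6 only, and 0 of 2 passed, as 0 of 5082 genes did. Snhg11 had the lowest processing rates of the members, 0.134 and 0.0935 in wild type, both under the 0.1th percentile of all genes, and 0.362 and 0.314 in the knockout. The log2 change of 1.59 (SE 0.431) had a limma adjusted p of 0.195, and with the replicate block, under which 25.6% of genes passed and 6.26% were higher, one of 0.0159. Snhg6 had 6.56 and 6.56 in wild-type neurons and 13.5 and 6.79 in knockout neurons, a log2 change of 0.54 (limma adjusted p = 0.632). In Mir22hg the 20 min value was 1.37 in wild type and 2.41 in the knockout.

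Synthesis rates of 70 members were compared and 0 passed by limma, as 0 of 5794 genes did, with an unadjusted p under 0.05 in 6 members. The median log2 change was -0.06 over the members and -0.03 over all genes. Both knockout libraries lay above both wild-type libraries in 8 members (8.92% of all genes) and below them in 11 (9.20%). With the replicate block 0 passed, and the authors' deposited table called 0 of 61. Leaving out the wild-type 60 min library gave 2 calls (0.0518% of all genes), the wild-type 20 min library 3 (0.173%), the knockout 20 min library 7 (0.276%) and the knockout 60 min library 8 (0.259%). Among members without extreme rates the lowest log2 change was that of Mir129-2, with 61.3 and 25.5 against 11.04 and 4.26 (log2 change -2.53, SE 0.695), and the highest that of Mir93, with 1.82 and 1.61 against 10.7 and 2.72 (1.66, SE 0.729). These genes were chosen after their values were seen.

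A run of 22 microRNA genes lay on the plus strand of chromosome 12 between 109586080 and 109743496, over 157 kb. They belong to the imprinted Dlk1-Dio3 region, whose microRNAs are expressed in neurons from the maternal chromosome. Degradation was tested in 12 of them and 1 passed without the replicate block, Mir541, beside 23.1% of all genes. Extreme rates occurred in 6 of the 22. Of the 8 tested without an extreme rate, 5 were higher in the knockout, and their median log2 change was 0.62, near the 0.65 of all genes. Values differed between neighbours, and these differences were not tested. Mir487b had 0.0882 and 0.366 in wild-type neurons and 1.30 and 2.20 in knockout neurons (log2 change 3.23, limma adjusted p = 0.0539, and 0.0136 with the replicate block), Mir409 had 0.573 and 0.518 against 1.05 and 0.902 (0.84), and Mir323 had 1.71 and 0.458 against 0.572 and 0.296 (-1.11). The host transcript Mirg had degradation rates in wild type only.

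The small RNA genes could be set beside their hosts in 30 pairs with 25 different host genes. In wild type the synthesis rate of the small RNA gene was above that of its host in 26 of 26 pairs with both values, by a median log2 difference of 1.78, and the degradation rate in 21 of 26, by 1.28. The degradation rate was below that of the host in Mir409, Mir541 and Mir668, all in Mirg, and in the snoRNA genes Snora35 and Snord42a. These 26 pairs include Mir3106 and Mir369, which had rates over 1000. The log2 change of the degradation rate was 3.61 in Mir218-2 and 1.82 in its host Slit3, and 2.98 in Mir326 and 1.39 in Arrb1. It was 3.95 in Snord42a and 0.89 in Rpl23a. Opposite signs were seen in Mir744 (2.23, limma adjusted p = 0.0743, and 0.0445 with the replicate block) and its host Map2k4, a kinase gene (-2.40). Over the 14 pairs with all 8 degradation rates and none over 1000, 7 had the same sign and the rank correlation of the changes was 0.416, a description over pairs that share libraries. For synthesis rate, 5 of 16 such pairs had the same sign and the rank correlation was -0.165. Reads in an exonic or intronic small RNA gene can belong to the host, and their share was not tested.

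**Figure D5:**
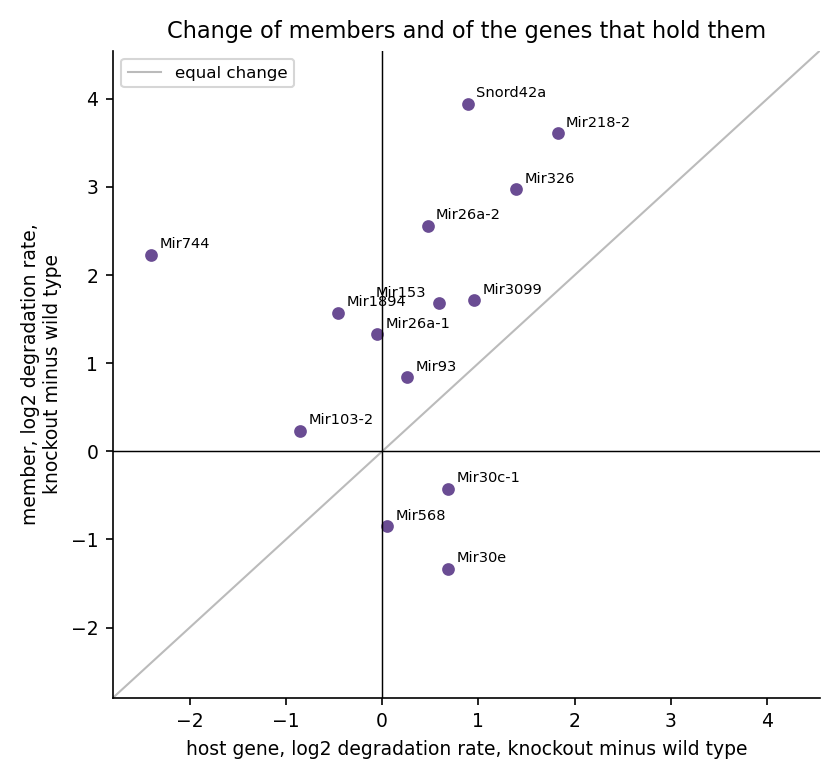
Log2 change of the degradation rate, knockout minus wild type, of the host gene (x) and of the small RNA gene within it (y), for the 14 pairs with all rates and none over 1000. The grey line marks equal change, and 11 pairs lie further from 0 on the y axis than on the x axis, with Mir744 in the upper left.

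Members were also grouped by seed. The strands listed in RefSeq gave 15 seeds held by 2 or more members (27 members). The let-7 seed GAGGUAG had both called falls, beside Mirlet7f-2, which was not called. Mirlet7a-2, whose hairpin also holds let-7a-5p, was left out of this grouping, as only its other strand is listed. The seeds of miR-125, miR-26 and miR-326 each held 1 called rise and no second call. The partner of Mir326, Mir330, had wild-type degradation rates only. In the miR-16 group, Mir16-1 had 0.449 and 0.145 against 1.23 and 0.737, a log2 change of 1.90 with a limma adjusted p of 0.108, and of 0.0212 with the replicate block. By position, 5 of 25 intronic, 6 of 15 exonic and 1 of 11 small RNA genes without a host on their strand were called, beside 23.1% of all genes. These shares were not tested against each other.

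The enzymes that make and use microRNAs were looked up as a group. Of 27 listed genes, 17 were in the table and 13 were tested for degradation rate, and 6 were higher and 0 lower in the knockout (20.5% and 2.57% of all genes), with a median log2 change of 1.17 beside 0.65 over all genes. The 6 were Dgcr8, the RNA-binding partner of Drosha, the Dicer partner Prkra, the Argonautes Ago2 and Ago3, the silencing scaffold Tnrc6c and the RNA editor Adar. Prkra had degradation rates of 0.119 and 0.0488 in wild-type neurons and 0.647 and 0.680 in knockout neurons (log2 change 3.12, SE 0.535, limma adjusted p = 0.0286). Ago2 had 0.0611 and 0.0879 against 0.309 and 0.326 (2.12, SE 0.360, limma adjusted p = 0.0285). Dicer1, with 0.0794 and 0.133 against 0.185 and 0.210, did not pass (limma adjusted p = 0.152). With the replicate block 6 were higher and 1 lower, beside 38.2% and 9.76% of all genes. The lower one was Zcchc6 (log2 change -1.13, limma adjusted p = 0.0376). None of the 6 calls was left after centring without the replicate block.

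Proteins of snoRNA particles were looked up likewise. Of 23 listed, 10 were tested and 2 passed, the methyltransferase Fbl and its partner Nop58, both higher, with a list median of 0.49. This stands beside 20.5% of all genes called higher and 2.57% lower. Fbl went from 0.0755 and 0.0425 to 0.666 and 0.569 (log2 change 3.44, SE 0.426, limma adjusted p = 0.0235). With the replicate block 4 were higher and 2 lower, beside 38.2% and 9.76% of all genes. The lower ones were Znhit3 (log2 change -2.40, limma adjusted p = 0.0344) and Nolc1 (-1.27, limma adjusted p = 0.0428). Of 16 nonsense-mediated decay genes, a pathway that degrades many spliced snoRNA hosts, 10 were tested and 1 was higher, Nbas, with a list median of 0.59. Of 14 other noncoding host genes, 3 had a row and 0 could be tested for degradation rate. Synthesis and processing rates had 0 calls in each of these lists by limma. With the replicate block, processing rates were lower in the knockout for the decay genes Upf3a and Eif4a3 (2 of 9 tested) and for Fbl and the snoRNA export factor Phax (2 of 8 tested), beside 19.3% of all genes lower.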

How the data were processed

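The rate table deposited by the authors, named for INSPEcT per the labels, holds linear rates of 4 labelled libraries, with no time unit stated. The authors also deposited 3 limma tables of knockout against wild type with log2 changes, p-values and adjusted p-values, per the file headers. The submitters' processing notes list cutadapt, Bowtie2, TopHat2, HISAT2, limma and the build mm10, without roles. The annotation and the assignment of multiply mapped reads are not given in the sources used here. All per-sample columns were used (0 left out).

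For each rate, genes with a rate above 0 in all 4 libraries were fitted on the log2 scale without a pseudocount by limma 3.58.1 in R 4.3.3 (lmFit, eBayes without trend, two-sided), with 2 libraries per genotype and Benjamini-Hochberg adjustment over all genes at 0.05. The fit was checked on simulated data. Libraries pair by labelling time, which the labels give; across genes the 20 min deviations of the genotypes correlated at rho 0.652 (degradation), 0.735 (synthesis) and 0.735 (processing). The members and lists were chosen with earlier results of these data known. Named members are those with an adjusted p under 0.05, the 3 largest rises and falls per rate, those with rates in wild type only, and the extremes in wild type. Other members given with values were chosen after their values were seen. Positions come from GENCODE M21 and sequences from RefSeq on GRCm38.p6 and, for snoRNAs, from GENCODE M21, matched by symbol (98 of 98 in GENCODE).

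Alternatives were a replicate block, centring, quantile normalization, block with centring, leaving out rates at or under the 25th percentile, a pseudocount at the 10th percentile (0.0431 for degradation, 0.306 for synthesis, 1.93 for processing), a trend in eBayes, a stricter threshold (0.01), each library left out in turn, and the deposited limma tables of the authors. Leaving out genes with a rate over 1000 was chosen after seeing the data.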

Additional observations from a re-analysis of the deposited data

How the results depend on the processing

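With labelling time as a replicate block the members called were 22 for degradation and 1 for processing, against 13 and 0, and the calls were 3 in the nonsense-mediated decay and 6 in the snoRNA particle list, against 1 and 2. For processing these lists had 2 calls each, against 0. It changed no other count of calls beyond 1.5 times. With the block and centring, these lists had 2 and 4 calls and processing 1 member. Centring without the block left 2 members called for degradation and 0 in each list with calls, and moved the median change to 0.17 for degradation and 1.42 for processing. Quantile normalization left 6 members, 0 genes of the microRNA and decay lists and 1 of the snoRNA list, with medians of 0.25 (degradation), 0.19 (synthesis) and 1.76 (processing). At a threshold of 0.01, 0 members and 0 genes of every list passed. Leaving out low rates gave 2 decay genes and a processing median of 0.54 (1 member). The pseudocount gave 3 decay and 4 snoRNA list calls and a processing median of 0.30. The trend gave 3 decay genes. In the authors' deposited tables the decay, snoRNA and other host lists had 3, 5 and 1 calls, the median changes were 0.067 for synthesis and 0.70 for processing, and the signs were opposite to those here in 4 of 39 members for degradation, Mir369 (0.48), Mir376b (1.03), Mir411 (1.32) and Mir323 (0.026), and in 5 of 47 for synthesis, Mir329 (-0.57), Mir15a (-0.53), Mir138-2 (-0.53), Mir411 (0.69) and Mir128-2 (0.10). None of these 9 passed either test.

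Leaving out 1 library gave 1 to 18 members called for degradation and 2 to 8 for synthesis. The medians ran from 0.76 to 1.30 (degradation), -0.47 to 0.30 (synthesis) and 0.77 to 1.37 (processing). List calls ran from 0 to 3 (microRNA), 0 to 2 (decay) and 0 to 2 (snoRNA). The median percentile in wild type ran from 91.2 to 96.7 for degradation, 96.2 to 98.5 for synthesis and 3.68 to 23.0 for processing. Synthesis changes of Mir29b-1 (-0.12 to 37.06) and Mirlet7f-2 (-0.29 to 29.11) turned sign without the knockout 20 min library, which holds their extreme rate. The causes of the other moves were not tested. Depth is unknown, so no counting error could be given for any rate. The genotype shift and the scaling cannot be told apart from the rate table.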
